A study of Homo sapiens with 4 samples.

Results

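The miR-191 and miR-425 cluster is a pair of miRNA hairpins carried in introns of the host gene DALRD3, and its 4 mature arms (hsa-miR-191-5p, hsa-miR-191-3p, hsa-miR-425-5p and hsa-miR-425-3p) were taken by name from the 2656 mature miRNAs listed in a small RNA count table. All 4 had reads in each of the 4 libraries. The libraries came from RD cells, a long-established human cell line derived from embryonal rhabdomyosarcoma (a soft tissue tumour that carries skeletal muscle features), and the cells received no treatment. Lysate was put through a native pull-down with biotinylated antisense probes and streptavidin beads. The EVEN and the ODD probe sets both target exon 2 of HIPK3, the exon that forms the circular RNA circHIPK3, the LacZ probes target a bacterial mRNA and serve as the control, and an input library was made as well. Each of the 4 groups (EVEN pull-down, ODD pull-down, LacZ pull-down and input) is 1 library from 1 biological replicate. No difference given here therefore has a replicate check, and no p-value can be given. Exon 2 also belongs to linear HIPK3 transcripts, and how much circHIPK3 each pull-down recovered was not analysed here.

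An intronic miRNA hairpin is cut out of the host transcript by Drosha and then trimmed by Dicer into a duplex of a 5p and a 3p arm. Argonaute keeps mainly one arm, the guide, and the other, the passenger, is usually degraded. A guide finds its targets mostly through its seed, the bases next to its 5′ end. The miR-191 guide is the 5p arm, which is abundant in many tissues and tumours and is often used as a reference in quantitative PCR. DALRD3 itself encodes a protein needed for a methyl mark on arginine transfer RNAs.

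The sequences are shown because the 2 arms of the miR-191 hairpin, which start out as 1 duplex, were recovered in different proportions. The mature arms come from RefSeq (GRCh38.p14, minus strand of chromosome 3), which matched 3 of the 4 names, and capitals mark the seed, bases 2 to 8.
miR-191-5p (chr3:49020672-49020694): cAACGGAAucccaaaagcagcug
miR-191-3p (chr3:49020631-49020652): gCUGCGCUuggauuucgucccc
miR-425-3p (chr3:49020159-49020180): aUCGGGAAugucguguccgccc
In the MIR191 hairpin (chr3:49020618-49020709, 92 bases) capitals mark the 5p arm first and the 3p arm after the loop.
MIR191 hairpin: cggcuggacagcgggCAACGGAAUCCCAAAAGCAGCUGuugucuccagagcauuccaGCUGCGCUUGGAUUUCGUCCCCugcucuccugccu

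The 3 seeds differ from each other, and no other of the 2370 mature miRNA names in the RefSeq table carries any of them. The guide miR-191-5p is 23 bases long with 52.2% G and C, and the 3p arms of miR-191 and miR-425 are each 22 bases long with 63.6%. In GENCODE release 29 on GRCh38, the build named in the submitters' processing notes, MIR425 lies at chr3:49020148-49020234, 383 bases from MIR191 on the same strand. Both hairpins lie in introns of all 4 DALRD3 transcripts that span them and touch no DALRD3 exon. MIR191 also lies in an intron of NDUFAF3, an assembly factor of mitochondrial complex I, on the opposite strand. Whether counting was strand-aware is not stated in the labels.

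Exon 2 of HIPK3 (chr11:33286413-33287511, plus strand, 1099 bases) was searched for the reverse complement of each seed. TTCCGTT, for miR-191-5p, had 0 matches on the transcript strand and 0 on the other strand. AGCGCAG, for miR-191-3p, and TTCCCGA, for miR-425-3p, also had 0 matches on either strand. In 55778 windows of the same length from the longest transcript of each protein-coding gene, these letters occurred in 1.82%, 4.98% and 2.87% of windows for miR-191-5p, miR-191-3p and miR-425-3p, so their absence is the usual case. This says only that these letters are not in this exon.

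The libraries held 98950 miRNA reads for EVEN, 426450 for ODD, 425395 for LacZ and 2987858 for the input. A count of 0 would allow up to 30.3 CPM (reads scaled to a library total of 1000000 miRNA reads) in EVEN, 7.03 in ODD, 7.05 in LacZ and 1.00 in the input, so the EVEN values are the least precise. The muscle miRNAs miR-206, miR-1-3p, miR-133a-3p and miR-133b had reads in all 4 libraries, with summed levels from 34970 to 103780 CPM. Of 8 markers of blood, epithelium, liver and neurons, miR-451a of red blood cells was at 0 in all 4 libraries, and the neuronal miR-124-3p had 1 read in the input and 0 elsewhere. The summed blood markers took 212 CPM in EVEN, 30.5 in ODD, 65.8 in LacZ and 38.2 in the input, and the summed epithelial markers 70.7, 23.4, 77.6 and 95.7 CPM in the same libraries. The liver marker miR-122-5p was at 0 in EVEN and ODD and had 14.1 CPM in LacZ and 3.68 in the input, and the epithelial miR-141-3p was at 0 in ODD. The part of other cell types in the values below was not tested. Intervals below are 95% exact binomial or exact conditional intervals and cover counting error only.

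The cluster was a small part of each library and was mostly miR-191-5p. Its 4 arms summed to 404 reads in EVEN (0.408% of the library), 677 in ODD (0.159%), 2109 in LacZ (0.496%) and 17994 in the input (0.602%). The guide miR-191-5p had 366 reads or 3699 CPM (3330 to 4097) in EVEN, 593 reads or 1391 CPM (1281 to 1507) in ODD, 1810 reads or 4255 CPM (4061 to 4455) in LacZ and 16316 reads or 5461 CPM (5378 to 5545) in the input. ODD was the low library. By totals the order was input, LacZ, EVEN, ODD, and the fold of each neighbouring pair had a counting interval that excludes 1, narrowly for EVEN against LacZ. The order of the upper 3 depends on the scaling: EVEN stood above LacZ under all 3 other scalings, and above the input as well, at a log2 ratio of 0.18, without the 10 most abundant miRNAs in the totals. By abundance miR-191-5p stood at rank 34 in EVEN, 53 in ODD, 42 in LacZ and 39 in the input.

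The passenger miR-191-3p had 9 reads or 91.0 CPM (41.6 to 173) in EVEN, 10 reads or 23.4 CPM (11.2 to 43.1) in ODD, 90 reads or 212 CPM (170 to 260) in LacZ and 161 reads or 53.9 CPM (45.9 to 62.9) in the input. By totals and unlike the guide, it was highest in the LacZ pull-down, above the input as well as above both circHIPK3 pull-downs. EVEN and the input could not be told apart at this depth, at a fold of 1.69 (0.758 to 3.29). By abundance it stood at rank 164 in LacZ and 263 in the input.

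On the second hairpin, miR-425-5p had 17 reads or 172 CPM (100.1 to 275) in EVEN, 49 reads or 115 CPM (85.0 to 152) in ODD, 125 reads or 294 CPM (245 to 350) in LacZ and 870 reads or 291 CPM (272 to 311) in the input. Its opposite arm miR-425-3p had 12 reads or 121 CPM (62.7 to 212) in EVEN, 25 reads or 58.6 CPM (37.9 to 86.5) in ODD, 84 reads or 197 CPM (158 to 244) in LacZ and 647 reads or 217 CPM (200.2 to 234) in the input. By totals, for both arms, LacZ and the input were not separable at this depth, and neither were EVEN and ODD. EVEN against LacZ was separated by totals, narrowly, for miR-425-5p and not for miR-425-3p. Under the 3 other scalings the log2 ratio of miR-425-5p was -0.47, -0.33 and -0.32 (-0.74 by totals). Each of these shifts is larger than the margin by which its interval excludes 1.

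**Figure D1:**
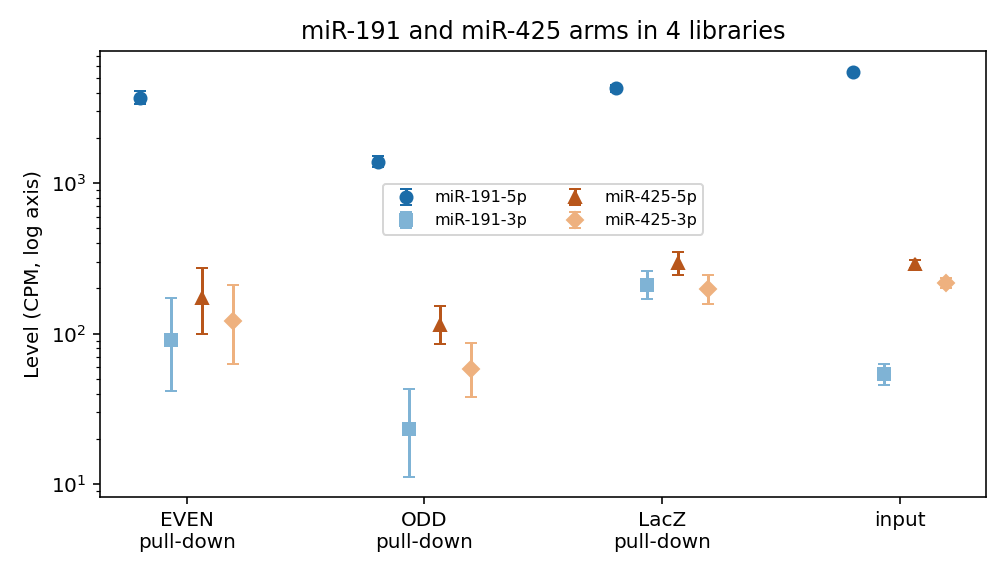
Level of each arm (CPM, log axis) in the EVEN, ODD and LacZ pull-downs and the input, 1 library each; bars are 95% exact binomial intervals for counting error. The guide miR-191-5p lies from 1391 to 5461 CPM, while miR-191-3p is highest in LacZ at 212 CPM and lowest in ODD at 23.4 CPM.

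The EVEN probes against LacZ ask whether a probe set against the circHIPK3 exon recovers these miRNAs beyond what control probes retain. Of the 4 arms, 0 passed 2-fold upwards with EVEN probes, where 9.69% of the 289 miRNAs tested (at least 20 reads in 1 of the 2 libraries) did. Downwards, 1 of 4, miR-191-3p, passed 2-fold, where 51.2% of all tested did. miR-191-5p was 1.15-fold lower with EVEN probes than with LacZ probes (1.03 to 1.29). miR-191-3p was 2.33-fold lower (1.17 to 5.25) and miR-425-5p 1.71-fold lower (1.03 to 3.03). miR-425-3p had a fold of 0.614 (0.305 to 1.13), which counting error alone could give.

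These ratios are shares of a library, and most miRNAs took a smaller share in EVEN: over all tested the log2 ratio had a median of -1.06. The distance of an arm from that median is the same under every scaling factor, but not with another added count or minimum of reads. On the log2 scale, miR-191-5p lay 0.86 above the median, miR-425-3p 0.41 above, miR-425-5p 0.32 above and miR-191-3p at -0.088 from it. By rank, 71.6% of the tested miRNAs had a lower ratio than miR-191-5p and 45.7% a lower ratio than miR-191-3p. With 5 added to each count the median was -0.46, with miR-191-5p at -0.19, miR-425-3p at -0.28 and miR-425-5p at -0.46. At a minimum of 1 read the median was -0.22, and only miR-191-5p, at -0.20, lay above it. The call on miR-191-3p was lost under the 3 other scalings and with 5 added to each count, where its log2 ratio was -0.66. Under those scalings miR-191-5p stood slightly above LacZ, at a log2 ratio of 0.065 under TMM scaling, 0.21 under median-of-ratios scaling and 0.22 once totals left out the 10 miRNAs of highest mean level. Over all tested miRNAs the split was 28 higher and 148 lower, and 43 and 107 with median-of-ratios size factors.

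With ODD probes all 4 arms were at least 2-fold lower than with LacZ probes, where 70.3% of the 300 miRNAs tested were at least 2-fold lower, so a count of 4 of 4 is close to what most miRNAs did. miR-191-3p was furthest down, at 9.02-fold lower (4.69 to 19.5). miR-425-3p was 3.37-fold lower (2.13 to 5.50), miR-191-5p 3.06-fold lower (2.79 to 3.36) and miR-425-5p 2.56-fold lower (1.82 to 3.64). The last of these intervals reaches below 2-fold.

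In this comparison the tested miRNAs as a whole had a median log2 ratio of -1.79. Against it, miR-425-5p lay 0.45 above, miR-191-5p 0.18 above and miR-425-3p 0.061 above on the log2 scale, whereas miR-191-3p lay at -1.32. Only 16.7% of tested miRNAs had a lower ratio than miR-191-3p, against 55.3% for miR-191-5p, 52.3% for miR-425-3p and 64.0% for miR-425-5p. At a minimum of 1 read the median was -1.59, and miR-191-5p, at -1.61, and miR-425-3p, at -1.73, then lay below it too. With TMM factors, which move the median of all tested to -0.50, or with median-of-ratios size factors, which move it to -0.35, miR-191-3p alone stayed at least 2-fold lower, at log2 ratios of -1.82 and -1.66. miR-191-5p then had -0.32 and -0.16, and miR-425-5p had -0.058 and 0.10, so the direction of miR-425-5p turned with the second scaling. Without the 10 most abundant miRNAs in the totals, miR-191-3p at -2.41 and miR-425-3p at -1.03 stayed at least 2-fold lower. The split over all tested miRNAs was 39 higher and 211 lower. It became 66 and 103 under TMM scaling, and 68 and 96 under median-of-ratios scaling. The EVEN and ODD comparisons share the LacZ library, so their values are not 2 independent results.

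**Figure D2:**
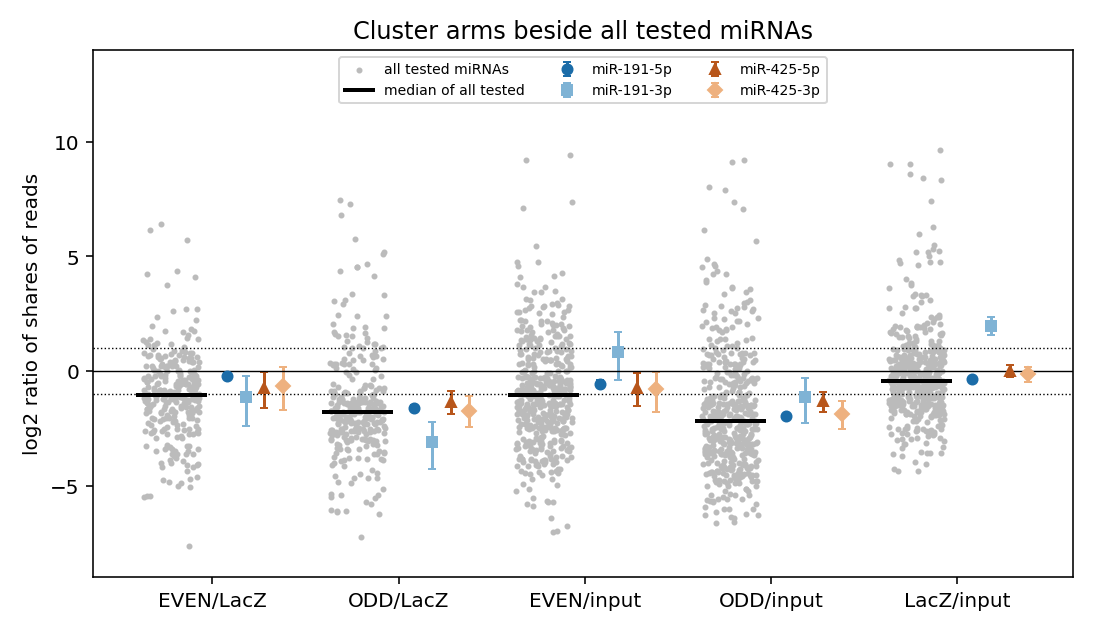
Log2 ratio of the share of reads for each comparison, with 1 grey point per tested miRNA, a black line at their median, and the 4 cluster arms with 95% exact conditional intervals; dotted lines mark 2-fold. In ODD against LacZ, 3 of the 4 arms sit within 0.45 of the median of -1.79 and miR-191-3p sits lower, at -3.11, while in LacZ against the input miR-191-3p sits at 1.98.

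The 2 probe sets target the same exon, and by totals the EVEN library held a larger share of the guide. Of the 3 arms that could be tested, miR-191-5p was 2.66-fold higher with EVEN than with ODD probes (2.33 to 3.04) and miR-425-3p 2.07-fold higher (0.947 to 4.27), an interval that includes 1. miR-425-5p was within 2-fold, at 1.50-fold (0.807 to 2.64), and miR-191-3p, with 9 and 10 reads, was under the minimum of 20 reads. That level of 2-fold was reached upwards by 37.9% of the 203 miRNAs tested, and their median log2 ratio was 0.64. Over all of these, 77 were higher and 37 lower, and 20 and 64 with TMM factors. With TMM and with median-of-ratios factors no arm was past 2-fold: miR-191-5p had log2 ratios of 0.39 and 0.37, miR-425-3p 0.056 and 0.037, and miR-425-5p turned to -0.42 and -0.43. Without the 10 most abundant miRNAs in the totals miR-191-5p stayed past 2-fold and miR-425-3p, at 0.80, did not.

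The LacZ mRNA is bacterial and not a human transcript, so the LacZ pull-down was set against the input to look at retention by beads and control probes. The LacZ library is also 7.02 times smaller than the input, and the cause of any difference was not tested. miR-191-3p was 3.93-fold higher in LacZ than in the input (3.00 to 5.11), the only arm past 2-fold, where 18.1% of the 475 miRNAs tested passed it upwards. It ranked 46 of the 475 from the highest ratio. Its partner on the same duplex, miR-191-5p, was 1.28-fold lower in LacZ (1.22 to 1.35). By totals the arms of miR-425 were close to the input, at folds of 1.01 (0.830 to 1.22) for miR-425-5p and 0.912 (0.718 to 1.15) for miR-425-3p. With TMM factors both lay below it, at log2 ratios of -0.58 and -0.73, and miR-191-5p at -0.96. The call on miR-191-3p stood under all 3 other scalings, with a log2 ratio of 1.37 for TMM factors, the lowest of them. The split of all tested miRNAs was 86 higher and 163 lower, 63 and 246 with TMM factors, and 108 and 127 without the 10 most abundant in the totals.

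Against the input, by totals, the EVEN library had 0 of 4 arms past 2-fold, where 70.5% of 464 tested miRNAs were past it in one direction or the other. miR-191-5p was 1.48-fold lower than in the input (1.33 to 1.64), miR-425-5p 1.69-fold (1.05 to 2.92) and miR-425-3p 1.79-fold (1.02 to 3.47). With TMM factors 2 arms were past 2-fold, miR-425-5p at a log2 ratio of -1.06 and miR-425-3p at -1.12. miR-191-3p passed 2-fold upwards without the 10 most abundant miRNAs in the totals, at 1.57, and in this setting miR-191-5p turned to 0.18. With 5 added to each count miR-191-3p also passed 2-fold upwards, at 1.35. The input total is 30.2 times that of EVEN, so an equal addition lifts low counts more in EVEN. It moved the middle of the whole table from -1.06 to 0.60 on the log2 scale, so this call does not show a higher level. In the ODD library all 4 arms were at least 2-fold below the input, where 68.6% of 468 tested miRNAs were. miR-191-5p was 3.93-fold lower with ODD probes than in the input (3.62 to 4.27), miR-425-3p 3.69-fold (2.48 to 5.75), miR-425-5p 2.53-fold (1.90 to 3.45) and miR-191-3p 2.30-fold (1.22 to 4.88). By the main settings all 4 nevertheless lay above the median of all tested miRNAs, which was -2.19 on the log2 scale. With 5 added to each count that median was -0.90, and only miR-191-3p, at -0.66, lay above it. At a minimum of 1 read the median was 0.0013, and all 4 arms lay below it. With median-of-ratios size factors no arm was past 2-fold. With TMM factors 2 arms stayed at least 2-fold lower, miR-191-5p at a log2 ratio of -1.29 and miR-425-3p at -1.17. The splits of all tested miRNAs were 85 higher and 242 lower for EVEN, against 123 and 176 without the 10 most abundant in the totals, and 61 and 321 for ODD, against 108 and 237 with median-of-ratios size factors.

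The proportion of the 2 arms within a library does not depend on any scaling. For miR-191, the 3p arm made up 2.40% of the reads of both arms in EVEN (1.10 to 4.51), 1.66% in ODD (0.798 to 3.03), 4.74% in LacZ (3.83 to 5.79) and 0.977% in the input (0.833 to 1.14). LacZ was the high library, and its interval overlapped only that of EVEN. The odds of 5p over 3p were 5.04 times lower in LacZ than in the input, with an odds ratio of 0.198 (0.152 to 0.261). They were higher than in LacZ by an odds ratio of 2.95 with ODD probes (1.52 to 6.40). With EVEN probes the odds ratio was 2.02 (1.01 to 4.61), which excludes 1 only narrowly and rests on 9 reads of miR-191-3p. Against the input the ratio was 0.401 for EVEN (0.204 to 0.901) and 0.585 for ODD (0.308 to 1.25), the last not separable from 1.

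The miR-425 arms were counted in far more even amounts, and their proportion was not seen to differ. The 3p arm took 41.4% of the reads of both arms in EVEN (23.5 to 61.1), 33.8% in ODD (23.2 to 45.7), 40.2% in LacZ (33.5 to 47.2) and 42.7% in the input (40.1 to 45.2). All 4 intervals overlapped. The odds ratio of 5p over 3p was 1.11 for LacZ against the input (0.816 to 1.51) and 1.32 for ODD against LacZ (0.732 to 2.40). Only 29 reads of both arms stand behind the EVEN share.

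By point estimate, changes of arm proportion were common over the whole table. No interval was applied to the other hairpins, and at low counts a hairpin can pass 2-fold by counting error. In LacZ against the input, 97 of 169 hairpins with both arms listed and at least 20 reads of both in each library (57.4%) had arm odds that differed at least 2-fold, and the median size was 1.19 on the log2 scale. The log2 change for miR-191 was -2.34, and 76.3% of hairpins had a smaller change in either direction. The change for miR-425 was 0.14, and 8.28% had a smaller one. In EVEN against LacZ the log2 change was 0.95 for miR-191 and -0.085 for miR-425, and 4.85% of 103 hairpins had a smaller change than miR-425. In ODD against LacZ the log2 change was 1.50 for miR-191, with a smaller change in 59.2% of 125 hairpins, and 0.39 for miR-425, with a smaller one in 16.0%. By point estimate the miR-425 arms thus lay among the hairpins with the least change, and miR-191 within the bulk. For miR-425 the odds ratio was 0.952 (0.405 to 2.31) for EVEN against LacZ and 1.32 (0.732 to 2.40) for ODD against LacZ. Both intervals reach past 2-fold, so a change of that size is not excluded there.

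**Figure D3:**
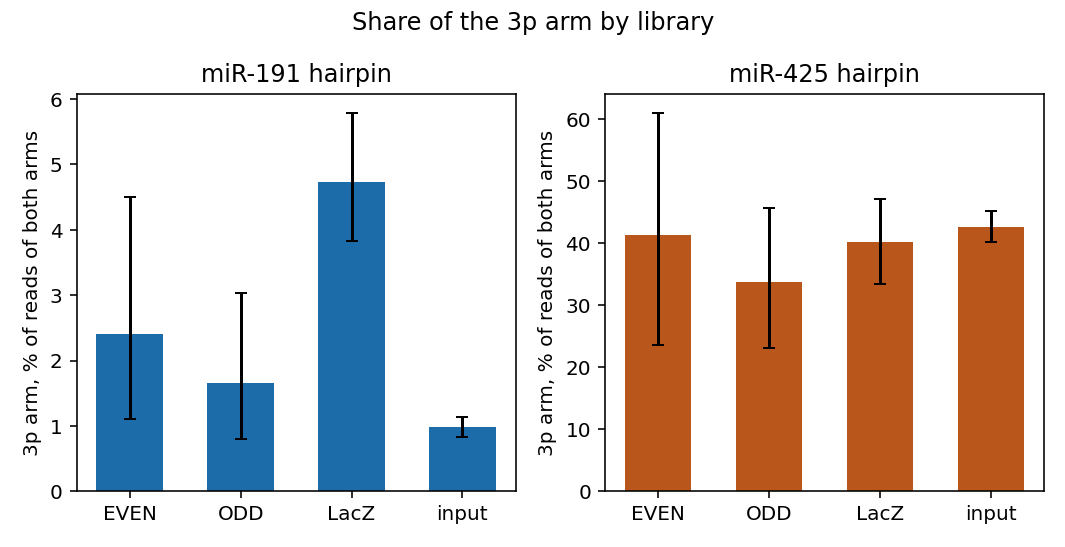
Share of the 3p arm among the reads of both arms (percent) for the miR-191 hairpin and the miR-425 hairpin in the EVEN, ODD and LacZ pull-downs and the input; bars are 95% exact binomial intervals and the panels have different axes. The miR-191 share is 4.74% in LacZ and 0.977% in the input, while the miR-425 share runs from 33.8% to 42.7% with overlapping intervals.

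Because MIR191 and MIR425 share a host, the 5p arms of the 2 hairpins can also be read against each other within a library. miR-191-5p had 21.5 times the reads of miR-425-5p in EVEN (13.3 to 37.4), 12.1 times in ODD (9.04 to 16.5), 14.5 times in LacZ (12.1 to 17.5) and 18.8 times in the input (17.5 to 20.1). The ratio relative to LacZ was 1.49 times as large in EVEN (0.879 to 2.67) and 0.836 times in ODD (0.588 to 1.20), neither separable from 1. Relative to the input it was 0.645 times in ODD (0.477 to 0.889) and 0.772 times in LacZ (0.635 to 0.945). The 3p arms showed another pattern: miR-191-3p relative to miR-425-3p was 4.30 times as high in LacZ as in the input (3.00 to 6.16), and 0.375 times as high in ODD as in LacZ (0.151 to 0.867). In EVEN this 3p ratio was 3.01 times that of the input (1.10 to 7.93), and not separable from LacZ at 0.701 times (0.247 to 1.92). ODD was not separable from the input, at 1.61 times (0.674 to 3.55).

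Likeness of profile was measured as the Euclidean distance between values of log2(CPM + 1), centred on each miRNA's mean over the 4 libraries, among 207 miRNAs with a mean of at least 100 CPM. With 4 points per profile this is a description only, and counting error was not carried into the distances. Nearest to miR-191-5p were miR-502-3p (distance 0.197), miR-23a-3p (0.207) and let-7a-3p (0.275). miR-502-3p had 616 CPM in EVEN, 232 in ODD, 797 in LacZ and 1063 in the input. Nearest to miR-425-5p were miR-296-5p (0.230), miR-484 (0.346) and its own opposite arm miR-425-3p (0.412). In EVEN these rest on 9, 16 and 12 reads and miR-425-5p on 17, so their order is uncertain. The other hairpin's 5p arm was further off, with miR-425-5p at place 19 from miR-191-5p (0.647), while miR-425-3p was at place 6 (0.367). miR-191-3p had a mean under 100 CPM and was not ranked.

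miR-191-5p and miR-425-5p belong to a group of miRNAs often used as references in quantitative PCR, and the other 13 of a list of 15 such miRNAs were set beside them. With EVEN probes against LacZ, by totals, 1 of these 13 was at least 2-fold higher, 3 were at least 2-fold lower and 9 were within 2-fold. Their median log2 ratio was -0.51 against -1.06 for all tested miRNAs. The 2 highest were miR-423-5p, at 3.36-fold (3.15 to 3.58), and miR-320a-3p, at 1.37-fold (1.18 to 1.60), and the 2 lowest were miR-186-5p, at 4.18-fold lower, and miR-26a-5p, at 2.65-fold lower. miR-191-5p and miR-425-5p, at log2 ratios of -0.20 and -0.74, were among those within 2-fold.

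With ODD probes against LacZ the same 13 spread further, from -2.99 to 2.46 on the log2 scale. By totals, 4 of these were at least 2-fold higher, 7 at least 2-fold lower and 2 within 2-fold, with a median of -1.16 against -1.79 for all tested. The 3 other scalings were not applied to this list. Each moves all ratios of a comparison by the same amount, and TMM factors put the median of all tested at -0.50. The counts past 2-fold therefore hold by totals only. miR-16-5p, a repressor of cell cycle genes, was highest at 5.49-fold (5.39 to 5.60), followed by miR-423-5p at 3.12-fold (2.98 to 3.27). miR-186-5p was 8.04-fold lower and miR-26a-5p 4.69-fold lower. miR-191-5p at -1.61 and miR-425-5p at -1.35 lay inside this range.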

How the data were processed

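Small RNA was counted in 4 RD libraries, 1 per group. Phenol and chloroform extraction, the QIAseq miRNA library kit and single-end NovaSeq sequencing are given per the labels' protocols. For each mature miRNA the authors deposited raw counts, and CPM that equal each count over its library total. Build GRCh38 is named in the submitters' processing notes. Trimming, the aligner, the annotation and any collapsing of molecular identifiers were not given in the sources used here. Without such collapsing the intervals are too narrow.

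Ratios were log2 of (count + 0.5) over the library total. A miRNA was tested with at least 20 reads in 1 of the 2 libraries and called at 2-fold. Folds leave out the 0.5 and carry 95% Clopper-Pearson conditional intervals. A count of 0 was read as up to 3 counts. Odds ratios between libraries are conditional estimates with exact intervals. Arm changes over all hairpins added 0.5 to each count.

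The text names the 4 members, the 3 nearest profiles of each 5p arm, and the 2 highest and 2 lowest reference miRNAs in each comparison of a probe set with LacZ; other names serve as cell type markers. The members and lists were chosen with earlier results of these data known. Scaling was varied with edgeR 4.0.16 (TMM factors), with DESeq2 1.42.0 (median-of-ratios size factors) and with totals that leave out the 10 miRNAs of highest mean CPM. Other alternatives were 5 added per count, 1 added to the deposited CPM, minimums of 1 and 100 reads, a 4-fold call, 100 reads per hairpin and log2(CPM + 10) for profiles. The ratio step was tested on simulated data. Python 3.11.15, scipy 1.17.1 and R 4.3.3 were used.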

Additional observations from a re-analysis of the deposited data

How the results depend on the processing

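Each value rests on 1 library per group, and EVEN gave 9 to 17 reads for 3 of the 4 arms. No paired analysis was possible because each group has 1 library, and no replicate could be left out. For EVEN against LacZ, miR-191-5p had a log2 ratio of -0.20 by totals, 0.065 under TMM scaling, 0.21 under median-of-ratios size factors and 0.22 without the 10 most abundant miRNAs in the totals. For ODD against LacZ and the same 3 scalings, miR-191-5p had -0.32, -0.16 and -0.91 (-1.61 by totals), and miR-425-5p had -0.058, 0.10 and -0.65 (-1.35 by totals). miR-191-3p for ODD against the input turned to 0.032 with median-of-ratios factors (-1.13 by totals). Of 178 values of the arms under alternatives, 137 lay inside the counting interval of the value by totals. That number includes the minimums of 1 and 100 reads (23 and 17 values) and the 4-fold call (23), which cannot change a ratio. All values outside the interval came from the 3 scalings, which hold 23 values each. Among the 178, the sign differed in 12, all from the 3 scalings, 2 of them arms past 2-fold by totals, and the call differed in 43. Arm proportions do not depend on scaling.

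Of 96 counts over all miRNAs under alternatives, 42 moved more than 1.5 times. With TMM factors, ODD against LacZ gave 66 higher and 103 lower (39 and 211 by the main settings), EVEN against ODD 20 and 64 (77 and 37), and LacZ against the input 246 lower (163). With median-of-ratios factors, these were 43 higher (28) for EVEN against LacZ, 68 and 96 for ODD against LacZ, 19 and 64 for EVEN against ODD, and 108 higher (61) for ODD against the input. Without the 10 most abundant, 44 were higher in EVEN against LacZ and 102 in ODD against the input. With 5 added, 87 were lower in EVEN against LacZ (148), 93 in LacZ against the input, and EVEN against the input turned to 194 higher and 99 lower (85 and 242). At a minimum of 1 read, EVEN against LacZ gave 149 and 248, ODD against LacZ 155 and 517, and EVEN against ODD 260 and 83. Against the input, 677, 412 and 478 (86) were then higher for EVEN, ODD and LacZ. The amount added to each count weighs more in the smaller library of a pair. A miRNA without reads in a pull-down and with few in the input can thus be counted as higher. The numbers of higher miRNAs against the input, with 5 added or at 1 read, therefore do not show a change of direction. At 100 reads, EVEN against LacZ gave 15 and 80, ODD against LacZ 108 lower, EVEN against ODD 39 higher, EVEN against the input 43 higher, and LacZ against the input 45 and 106. At 4-fold the same 5 comparisons gave 12 and 76, 20 and 137, 22 higher, 46 and 153, and 45 and 55. At 100 reads per hairpin, fewer hairpins could be used, and those past 2-fold in arm odds numbered 36 (63 at 20 reads) in EVEN against LacZ, 45 (71) in ODD against LacZ, 33 (65) in EVEN against ODD, 38 (72) in EVEN against the input and 63 (97) in LacZ against the input. These counts are not shares of the hairpins used, so they do not show whether such changes were as common at 100 reads. The 3 nearest profiles of each 5p arm were the same with log2(CPM + 10).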
